A study of Mus musculus with 2 samples.

Results

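The genes described here are 6 transcripts of the T cell receptor gamma and delta loci: the gamma constant genes Tcrg-C1, Tcrg-C2 and Tcrg-C4, the gamma variable gene Trgv2, the delta constant gene Trdc and the delta variable gene Trdv4. They were chosen by symbol from the 32285 genes of the matrix because earlier readings of these cells had shown them to differ between T cell classes, so their levels by class are given below as a description without a test. All 6 were counted. A further 30 genes belong to the same 2 loci, of which 21 had at least 1 unique molecular identifier (UMI, the tag that marks 1 captured RNA molecule) and 9 had none.

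The cells came from melanoma tumours of C57BL/6J mice given Lactobacillus reuteri (LR, a gut bacterium), or given only PBS (the buffer control), with 4 mice in each condition; the labels give the second treatment as none and name neither the tumour line nor the age of the animals. Cells carrying CD90.2 were enriched, 8000 live CD8+ cells per mouse were sorted, and each mouse received its own hashtag, an antibody with a DNA barcode. Mice of the same condition were then pooled and all 8 were loaded on a single lane for 5′ single-cell RNA sequencing, so any difference in handling between the condition pools cannot be told apart from treatment. After filtering, 10408 cells were assigned to 1 mouse each, from 479 to 2587 per mouse, with a median of 3272 UMIs and 1385 genes per cell.

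Gamma delta T cells carry a receptor made of a gamma chain and a delta chain, whereas CD8 and CD4 T cells carry an alpha and a beta chain. A gamma chain is built by joining a variable (V) segment to a joining (J) segment that is read together with a constant (C) gene; the mouse gamma locus holds several such V-J-C cassettes, and the delta locus sits inside the alpha locus. Gamma genes can be rearranged and transcribed in cells that end up with an alpha beta receptor, and a gamma transcript alone therefore does not identify a gamma delta T cell.

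On the GRCm38 assembly with GENCODE M21 annotation, Trgv2 (ENSMUSG00000076754) lies on the minus strand of chromosome 13 at 19336573 to 19337167 in 2 exons. Tcrg-C2 (ENSMUSG00000076752) lies on the same strand at 19304649 to 19307551 in 3 exons, and the joining segment Trgj2 lies between them at 19311245 to 19311304. Tcrg-C1 (ENSMUSG00000076749; 19214103 to 19217024) and Tcrg-C4 (ENSMUSG00000076757; 19344558 to 19352756) are on the plus strand of chromosome 13. Trdv4 (ENSMUSG00000076867; 54074905 to 54075515) and Trdc (ENSMUSG00000104876; 54142851 to 54148868) are on the plus strand of chromosome 14, and the 3′ end of Trdc overlaps the variable gene Trdv5 (54148662 to 54149294) on the opposite strand.

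Trgv2, Tcrg-V1 and Tcrg-V3 are near-copies of one another, and so are Tcrg-C1, Tcrg-C2 and Tcrg-C3, which bears on the counts of these genes. Other gamma variable genes matched Trgv2 at fewer of the 120 bases, with 68.3% for Tcrg-V4, 45.8% for Tcrg-V5, 19.2% for Tcrg-V7 and 16.7% for Tcrg-V6. Bases were compared position by position without gaps. A shift between 2 sequences lowers such a value, so low values do not measure how related the genes are. The stretches that a 5′ read would have to tell apart are shown. For the variable genes they are the leading 120 coding bases of the second exon, at chr13:19336760-19336879 on the minus strand for Trgv2, chr13:19340151-19340270 on the plus strand for Tcrg-V1 and chr13:19242995-19243114 on the plus strand for Tcrg-V3. Capitals mark the bases that differ from Trgv2, which number 3 in Tcrg-V1 and 6 in Tcrg-V3.
Trgv2: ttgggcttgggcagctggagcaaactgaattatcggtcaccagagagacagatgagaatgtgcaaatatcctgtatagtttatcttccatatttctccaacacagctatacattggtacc
Tcrg-V1: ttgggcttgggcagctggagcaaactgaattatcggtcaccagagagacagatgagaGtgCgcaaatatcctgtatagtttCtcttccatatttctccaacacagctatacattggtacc
Tcrg-V3: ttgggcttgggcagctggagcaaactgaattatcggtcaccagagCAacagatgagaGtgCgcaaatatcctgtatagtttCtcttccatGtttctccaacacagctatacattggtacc

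For the constant genes they are the leading 120 bases of the first exon, at chr13:19307432-19307551 on the minus strand for Tcrg-C2, chr13:19214103-19214222 on the plus strand for Tcrg-C1 and chr13:19344558-19344677 on the plus strand for Tcrg-C4. Capitals mark the bases that differ from Tcrg-C2, which number 2 in Tcrg-C1 and 15 in Tcrg-C4.
Tcrg-C2: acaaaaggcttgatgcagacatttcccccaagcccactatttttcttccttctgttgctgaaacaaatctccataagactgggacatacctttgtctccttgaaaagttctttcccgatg
Tcrg-C1: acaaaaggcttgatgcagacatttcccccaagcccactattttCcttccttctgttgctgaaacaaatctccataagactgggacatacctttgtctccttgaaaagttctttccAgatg
Tcrg-C4: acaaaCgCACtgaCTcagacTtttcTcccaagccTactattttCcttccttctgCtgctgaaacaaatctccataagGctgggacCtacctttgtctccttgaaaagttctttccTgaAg

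Over 330 bases of that exon Tcrg-C1 and Tcrg-C2 were 97.3% identical, with an identical run of up to 71 bases, and Tcrg-C2 and Tcrg-C4 were 81.5% identical. Reads that fall where 2 genes are the same could have been dropped or given to either, so the division of UMIs among Tcrg-C1, Tcrg-C2 and Tcrg-C3, and among Trgv2, Tcrg-V1 and Tcrg-V3, is uncertain. The annotated transcripts also differ before the start codon, with 141 bases in Trgv2, 27 in Tcrg-V1, 18 in Tcrg-V7 and 0 in Tcrg-V3. How this affected the 5′ counts was not tested, and a larger count of a gene need not mean more of its RNA. Trdc and Trdv5 overlap on opposite strands, and the strand setting of the counting is not given in the sources used here.

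Cells were placed in classes by the UMIs of a few genes. CD8 T cells had a UMI of Trac, Trbc1 or Trbc2 (the alpha and beta constant genes) and of Cd8a or Cd8b1, with none of Cd4, and numbered 4789. They were divided by Pdcd1, which encodes the inhibitory receptor PD-1, at 0 or at least 1 UMI, and by Xcl1, which encodes a chemokine of activated T and NK cells, under 3 or at least 3 UMIs. This gave 3118 Pdcd1-negative Xcl1-low cells (median 3583 UMIs), 39 Pdcd1-negative Xcl1-high cells, 1457 Pdcd1-positive Xcl1-low cells (median 5743 UMIs) and 175 Pdcd1-positive Xcl1-high cells (median 10681 UMIs). CD4 T cells, defined likewise with Cd4 and without Cd8a or Cd8b1, numbered 1261 (median 3184 UMIs). The labels give a sort for CD8+ cells but also describe CD3+ T cells, so the sorted population is not certain. Cells with a UMI of Ncr1, which encodes the NK receptor NKp46, numbered 45 (median 3293 UMIs), of which 8 were also in the CD8 T class. As a check on free RNA, 20 cells with at least 3 UMIs of the myeloid gene Lyz2 and no alpha or beta constant UMI held 0 UMIs of every member, for which 3 counts allow a share of up to 15.0% of such cells with a UMI, for counting error only.

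Trgv2 was the gamma transcript with the most UMIs, and most of them were in Pdcd1-positive CD8 T cells. It had 1870 UMIs in 584 cells, 74.4% of the 2512 UMIs of all gamma genes, and 84.9% of them fell in the 1632 Pdcd1-positive CD8 T cells, against 6.95% in the 3157 Pdcd1-negative ones. In Pdcd1-positive Xcl1-low cells the Trgv2 level was 96.1, 125, 219 and 141 UMIs per 1000000 gene UMIs (CPM) in LR mice 1 to 4 and 96.1, 62.6, 216 and 201 CPM in PBS mice 6 to 9, a mean of 144 CPM ± 60.4 (SD, n = 8). In Pdcd1-negative Xcl1-low cells it was 5.75, 9.87, 12.8 and 62.9 CPM in the LR mice and 12.6, 0.870, 14.1 and 13.3 CPM in the PBS mice, a mean of 16.5 CPM ± 19.3 (SD, n = 8). The Pdcd1-positive value exceeded the Pdcd1-negative one in 8 of 8 mice, although the highest Pdcd1-negative mouse, LR 4, just overlapped the lowest Pdcd1-positive mouse, PBS 7. The means stood 8.73-fold apart, and the pooled UMIs of all mice 14.0-fold. Without LR 4 the Pdcd1-negative mean was 9.91 CPM.

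Within the Pdcd1-positive cells Trgv2 was lower where Xcl1 was high. The Xcl1-high cells had 17.2, 36.5, 81.8 and 35.5 CPM in the LR mice and 54.4, 26.5, 69.4 and 65.0 CPM in the PBS mice, a mean of 48.3 CPM ± 22.8 (SD, n = 8), from 10 to 33 cells per mouse. Each mouse was lower than in its own Xcl1-low cells. In CD4 T cells Trgv2 ranged from 0 CPM in LR 1, LR 3 and PBS 6 to 3.56 CPM in PBS 9, with a mean of 1.29 CPM ± 1.26 (SD, n = 8), and these came from 8 cells with 1 UMI each. No CD4 value reached the lowest value of either Pdcd1-positive class. The order of the class means from high to low was therefore Pdcd1-positive Xcl1-low, Pdcd1-positive Xcl1-high, Pdcd1-negative Xcl1-low and CD4. The ranges of each neighbouring pair overlapped, that of Pdcd1-negative with CD4 through PBS 7. Pdcd1-positive Xcl1-high cells exceeded Pdcd1-negative Xcl1-low cells in 7 of 8 mice, with LR 4 the other way.

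Moving the thresholds step by step showed where the Trgv2 level changed. Pooled over mice, CD8 T cells with 0, 1, 2 and at least 3 Pdcd1 UMIs held 11.0, 96.6, 133 and 132 CPM of Trgv2, so the step lay between 0 and 1 Pdcd1 UMI. Pdcd1-positive cells with 0, 1, 2, 3 and at least 4 Xcl1 UMIs held 152, 109, 82.7, 34.4 and 51.7 CPM of Trgv2, a decline with no single step, and the group with exactly 3 Xcl1 UMIs held only 17 cells.

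**Figure D1:**
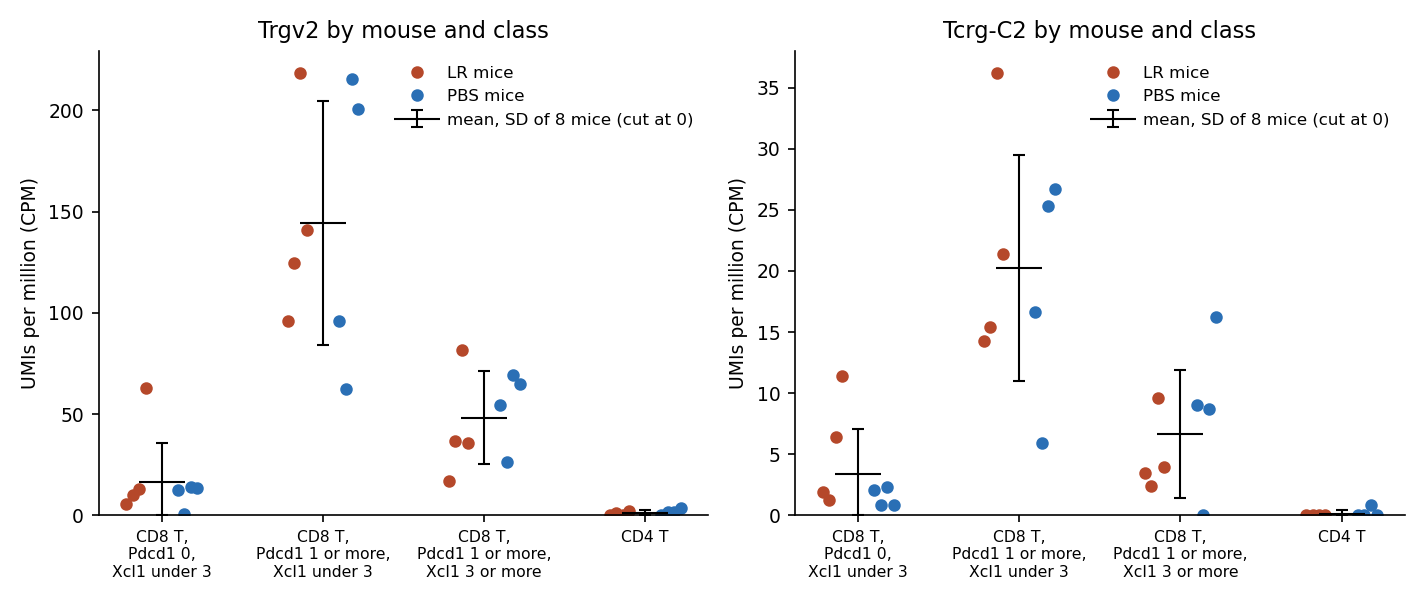
Level of Trgv2 (left) and Tcrg-C2 (right) in CPM for each mouse and class, with LR mice in red, PBS mice in blue and a black bar for the mean and SD of the 8 mice. For Trgv2 the Pdcd1-positive Xcl1-low class sits between 62.6 and 219 CPM, and the LR and PBS points of that class overlap.

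Trgv2 was found in a larger share of Pdcd1-positive than of Pdcd1-negative CD8 T cells. A Trgv2 UMI was found in 398 of 1457 Pdcd1-positive Xcl1-low cells (27.3%, exact 95% interval 25.04 to 29.68), 32 of 175 Pdcd1-positive Xcl1-high cells (18.3%, 12.9 to 24.8), 59 of 3118 Pdcd1-negative Xcl1-low cells (1.89%, 1.44 to 2.43), 8 of 1261 CD4 T cells (0.634%, 0.274 to 1.25) and 1 of 45 Ncr1-positive cells. These intervals cover counting error only. Since the classes differ in depth, each cell was also thinned to 2000 UMIs, leaving out shallower cells (75, 3, 380 and 174 of the respective T cell classes), and the shares were then 17.4%, 5.23%, 1.32% and 0.0920%, in the same order. Of the 1632 Pdcd1-positive CD8 T cells, 73.7% had no Trgv2 UMI, 119 had 1, 86 had 2, 124 had 3 to 5, 80 had 6 to 9 and 21 had 10 or more, up to 21 in a cell. The cells with 6 to 9 UMIs held 35.8% of the Trgv2 UMIs of the class, and those with 10 or more held 17.0%. Among Pdcd1-negative CD8 T cells, 42 had 1 UMI, 4 had 2, 9 had 3 to 5 and 7 had 6 to 9, so some cells without a Pdcd1 UMI carried several Trgv2 molecules. The numbers of Trgv2 UMIs per cell were not matched for depth.

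Tcrg-C2, the constant gene on the same strand downstream of Trgv2, followed the same order of class means at lower counts. Its level in Pdcd1-positive Xcl1-low cells was 14.3, 15.5, 36.2 and 21.4 CPM in the LR mice and 16.6, 5.96, 25.3 and 26.7 CPM in the PBS mice, with a mean of 20.2 CPM ± 9.25 (SD, n = 8). The means were 6.68 CPM ± 5.22 in Pdcd1-positive Xcl1-high cells, 3.39 CPM ± 3.71 in Pdcd1-negative Xcl1-low cells and 0.110 CPM ± 0.312 in CD4 T cells (SD, n = 8 each), the last from a single UMI. Tcrg-C2 was higher in Pdcd1-positive Xcl1-low than in Pdcd1-negative Xcl1-low cells in 8 of 8 mice. Between Pdcd1-positive Xcl1-high and Pdcd1-negative Xcl1-low cells it was higher in 6 mice and lower in 2. In the Pdcd1-positive Xcl1-low class LR 3 was the highest mouse and PBS 7 the lowest for both Trgv2 and Tcrg-C2. A Tcrg-C2 UMI was found in 10.6% of Pdcd1-positive Xcl1-low, 7.43% of Pdcd1-positive Xcl1-high, 0.609% of Pdcd1-negative Xcl1-low and 0.0793% of CD4 T cells.

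The other gamma constant genes were sparse. Tcrg-C1 had 36 UMIs in 29 cells, 18 of them Pdcd1-positive Xcl1-low cells (1.24%), where its level was 0 CPM in LR 1, LR 2, PBS 7 and PBS 9 and reached 9.39 CPM in LR 3. Its mean there was 2.98 CPM ± 3.83 (SD, n = 8) against 0.484 CPM ± 0.598 in Pdcd1-negative Xcl1-low and 0.474 CPM ± 0.955 in CD4 T cells, and it was not detected among the 175 Pdcd1-positive Xcl1-high cells, for which 3 counts allow up to 1.71% of cells with a UMI. Tcrg-C4 had 32 UMIs in 29 cells, with means of 1.58 CPM ± 1.05 in Pdcd1-positive Xcl1-low, 1.64 CPM ± 2.53 in Pdcd1-positive Xcl1-high and 0.585 CPM ± 0.780 in Pdcd1-negative Xcl1-low cells (SD, n = 8 each) and none in CD4 T cells (3 counts allow up to 0.238% of cells with a UMI). The mice of the 3 CD8 classes overlapped for both Tcrg-C1 and Tcrg-C4.

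Among the 11 gamma genes outside the 6, 8 had a UMI, of which 5 were higher and 3 lower in pooled Pdcd1-positive than in Pdcd1-negative CD8 T cells. Tcrg-V7 had 138 UMIs in 77 cells, 89.1% of them in Pdcd1-positive CD8 T cells, and Tcrg-V3 had 82 UMIs in 45 cells, 81.7% of them there. Tcrg-V6 and Tcrg-V4, with 23 and 20 UMIs, had only 5 and 4 of them there.

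**Figure D2:**
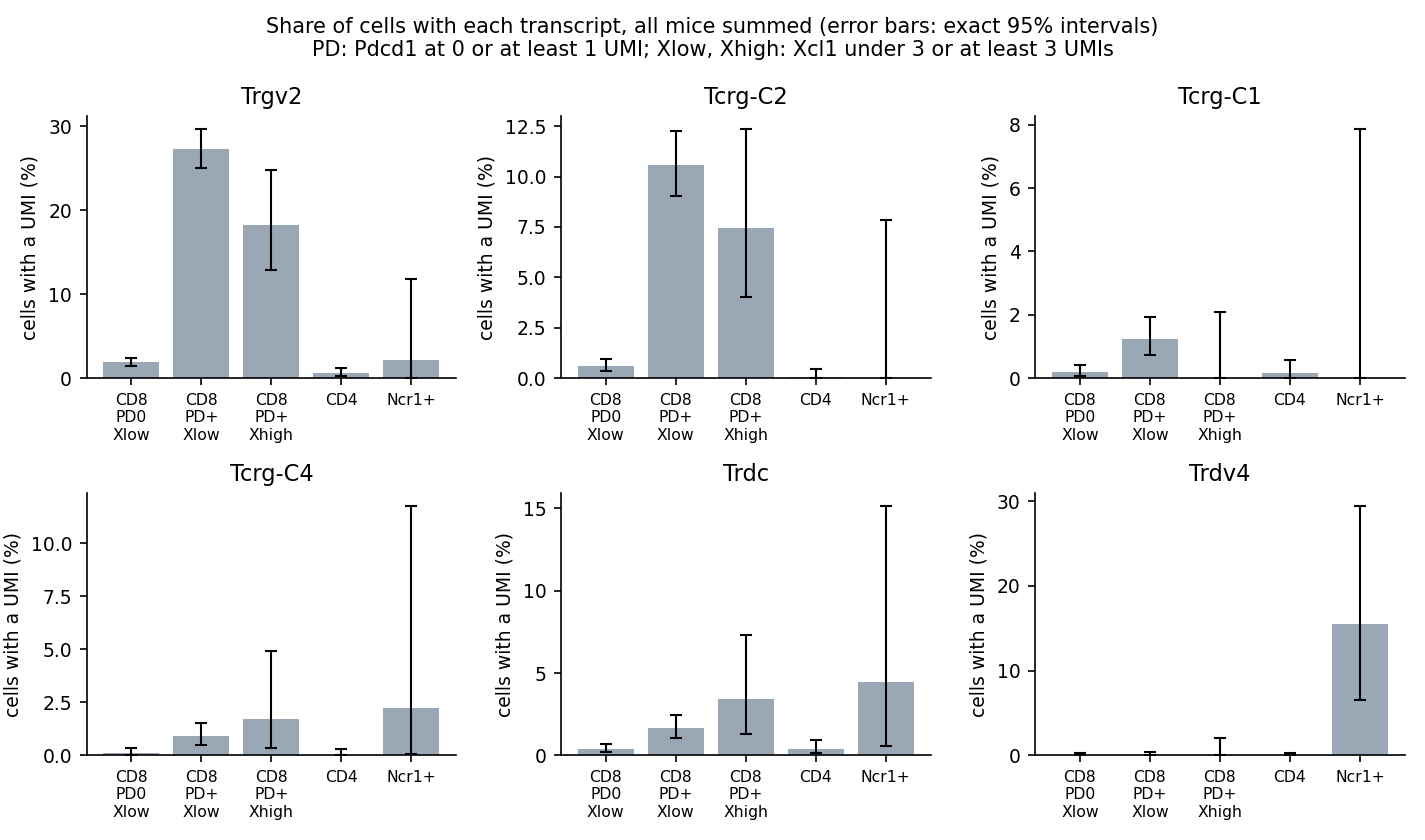
Percentage of cells with at least 1 UMI of each of the 6 transcripts in 5 classes, all mice summed, with exact 95% intervals; the vertical scales differ. Trgv2 reaches 27.3% in Pdcd1-positive Xcl1-low cells, and Trdv4 is seen mainly in the 45 Ncr1-positive cells.

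Whether Trgv2 and the constant genes were found in the same cells was examined within the 1632 Pdcd1-positive CD8 T cells, of which 430 had a Trgv2 UMI. Tcrg-C2 was present in 148 of those 430 (34.4%, exact 95% interval 29.9 to 39.1) and in 19 of the 1202 without Trgv2 (1.58%, 0.954 to 2.46). Thus 88.6% of the 167 cells with Tcrg-C2 also had Trgv2. The cells with Trgv2 were deeper (median 6878 against 5705 UMIs), and after thinning to 2000 UMIs the shares were 18.9% and 1.69%. Tcrg-C1 was present in 11 of 430 (2.56%, 1.28 to 4.53) and 7 of 1202 (0.582%, 0.235 to 1.20), and Tcrg-C4 in 9 of 430 (2.09%, 0.961 to 3.94) and 7 of 1202 (0.582%, 0.235 to 1.20). Trdc went the other way, with 5 of 430 (1.16%, 0.379 to 2.69) and 25 of 1202 (2.08%, 1.35 to 3.06), within overlapping intervals. Every cell of the class had a Trac, Trbc1 or Trbc2 UMI by definition. Among the cells with Trgv2, 85.3% had a Trac UMI and 90.2% a Trbc2 UMI, against 69.2% and 87.4% of the cells without Trgv2.

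A comparison added after the data had been seen set Pdcd1-positive CD8 T cells with Trgv2 against those without in the same 8 mice, on UMIs summed per mouse (edgeR quasi-likelihood test with mouse as a block, Benjamini-Hochberg adjusted p at most 0.05). Of 6720 genes tested, 141 (2.10%) were called, 61 (0.908%) higher and 80 (1.19%) lower with Trgv2, and the median log2 ratio over all genes was 0.01. Tcrg-C2 rose most clearly: it was 43.5, 37.0, 82.9 and 57.0 CPM with Trgv2 in the LR mice and 51.7, 30.7, 59.2 and 66.9 CPM in the PBS mice, against 4.07, 2.08, 2.47 and 1.69 CPM and 3.69, 0, 0 and 4.91 CPM without. No mouse overlapped between the sides, and the log2 ratio was 4.31 (SE 0.26, edgeR adjusted p = 1.28e-10). Tcrg-C2 had been chosen together with Trgv2, which defines the sides, and lies downstream of it on the same strand, so this p-value is not separate support. Whether the UMIs of both came from the same transcripts was not tested. Trgv2 itself had been chosen for its difference between T cell classes. Within the Pdcd1-positive cells it still rose from 96.6 CPM at 1 Pdcd1 UMI to 132 CPM at 3 or more. Genes that differ between the classes can therefore follow this split, and their p-values below are not separate support for the class differences.

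The genes that were higher with Trgv2 included Tox, a transcription factor of exhausted T cells, and the inhibitory receptor gene Tigit. Tox averaged 245 CPM ± 44.9 with and 162 CPM ± 27.7 without Trgv2 (SD, n = 8), higher in 8 of 8 mice, and its log2 ratio was 0.57 (SE 0.10; adjusted p = 0.00116 by edgeR). Cxcr6, a chemokine receptor of tissue-resident and effector T cells, had a log2 ratio of 0.43, the serine protease inhibitor Serpina3g 0.57, Tigit 0.36, the cell cycle kinase Cdk6 0.67 and the chromatin protein gene Hmgb1 0.33. Cd3g, a CD3 chain of the receptor complex, was at 0.25, and Gm36723 and 1700017B05Rik were at 0.77 and 0.83. After thinning, Tox was at 0.72 (edgeR adjusted p = 0.00587), while Hmgb1 was at 0.08 (edgeR adjusted p = 0.874). Tigit at 0.31 (edgeR adjusted p = 0.174) and Gm36723 at 0.66 (edgeR adjusted p = 0.186) were also no longer called, although their ratios stayed close to those from all UMIs.

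The genes that were lower with Trgv2 were led by Ccr7, the lymph node homing receptor, which averaged 38.3 CPM ± 19.2 with and 153 CPM ± 81.3 without (SD, n = 8; lower in 8 of 8 mice; log2 ratio -2.04, SE 0.15, edgeR adjusted p = 3.34e-09). The tetraspanin gene Cd81 had a log2 ratio of -3.11, the interleukin-7 receptor gene Il7r -1.95, Dapl1 -3.02, the integrin gene Itgb7 -1.74, the quiescence factor Klf2 -1.53, Emb -1.49, Ly6c2 -1.05, the RNA-binding protein gene Zfp36l1 -1.02 and Junb -0.42. Of the 20 genes named in these 2 directions, all were called in all 8 fits that left out 1 mouse. At 2000 UMIs per cell Il7r was at -2.26 and Klf2 at -2.38, and both were still called, whereas Ccr7, Cd81, Dapl1 and Itgb7 could not be tested. In the fit without the mouse block 36 genes were called, all among the 141, and in the thinned cells 45 of 2377 were called, among them 26 of the 79 of the 141 that could be tested, with 72 of the 79 in the same direction.

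Among genes of naive or central memory T cells, Tcf7 and Lef1 were lower with Trgv2, as was Ccr7 above. Tcf7, a transcription factor of naive and stem-like T cells, averaged 43.5 CPM ± 55.8 with and 124 CPM ± 68.6 without Trgv2 (SD, n = 8; log2 ratio -1.86, SE 0.27, edgeR adjusted p = 1.79e-04), and Lef1, a related transcription factor, was at -1.15 (edgeR adjusted p = 0.00294). Of 12 genes that act on rearrangement or transcription of the gamma locus, 10 were tested and 3 were lower (Il7r, Tcf7 and Lef1), none was higher, and the recombinase genes Rag1 and Rag2 were too low to test. Of 4 CD3 and zeta chain genes 1 was higher (Cd3g). Of 4 cycling genes Stmn1 was higher (0.56), but it was at -0.03 in thinned cells (edgeR adjusted p = 0.982). Of 5 tested NK cell genes Gzma was lower (-2.04), a call that was lost without LR 1 (edgeR adjusted p = 0.0533) and with DESeq2 (adjusted p = 0.373), and 7 NK genes including Ncr1, Klrb1c and Tyrobp were too low to test. The gamma delta T cell markers Sox13, Zbtb16, Blk, Il17a, Il23r, Cd163l1, 5830411N06Rik, Il1r1 and Ccr6 were too low to test, and Cd27 and Gata3, which some gamma delta T cells use, were tested and not called. Pdcd1 itself was at 0.07 (edgeR adjusted p = 0.736), and of 5 alpha beta T cell genes and 2 CD8 genes none was called. Both sides had been selected for UMIs of Pdcd1, of Trac, Trbc1 or Trbc2, and of Cd8a or Cd8b1, which limits what the results for those genes can show.

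**Figure D3:**
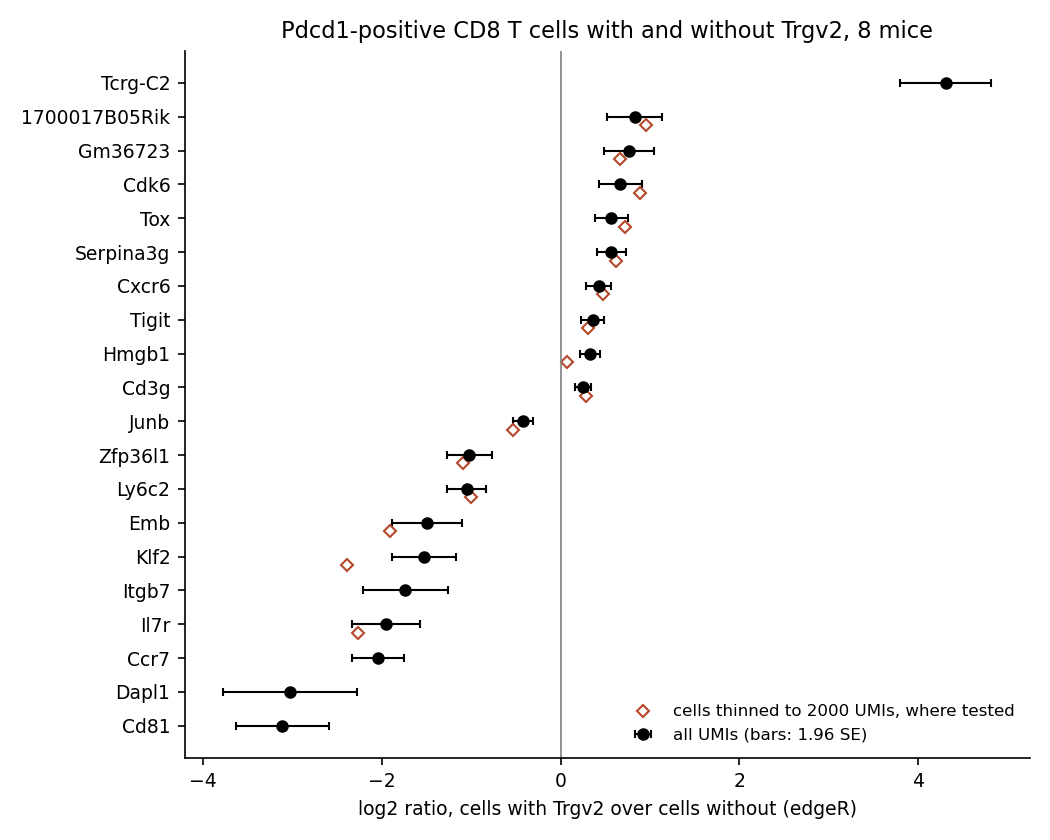
Log2 ratio of Pdcd1-positive CD8 T cells with Trgv2 over those without for the 10 most significant genes called in each direction, all with the same sign in 8 of 8 mice. Black points with error bars use all UMIs, and open diamonds use cells thinned to 2000 UMIs where the gene could be tested; Tcrg-C2 stands at 4.31 and Cd81 at -3.11.

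Rearranged receptor genes differ between T cell families, so the members were also set against the leading alpha and beta variable segments of each cell, taken as the Trav and the Trbv gene with the most UMIs without a tie. Of 1632 Pdcd1-positive CD8 T cells 959 had both, and 15 pairs of segments within a mouse had at least 12 cells (409 cells in 6 mice). Cells with the same pair in a mouse may descend from the same cell, but joining sequences were not read, and such cells are not replicates. Trgv2 was found in all 15 pairs, from 16 of 23 cells (69.6%, exact 95% interval 47.1 to 86.8) with Trbv19 and Trav14n-3 in LR 4 to 2 of 17 (11.8%, 1.46 to 36.4) with Trbv19 and Trav6-7-dv9 in the same mouse. Trgv2 cells were therefore not limited to a few receptor pairs, and even the pairs with the most had cells without a Trgv2 UMI.

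Some other gamma segments were frequent in particular receptor groups. With Trbv16 and Trav13-1 in LR 3, 13 of 25 cells (52.0%, 31.3 to 72.2) had Tcrg-V7, 15 (60.0%) had Trgv2, 13 (52.0%) had Tcrg-C2 and 4 (16.0%) had Tcrg-C1, whereas 51 of the 1607 other Pdcd1-positive cells (3.17%) had Tcrg-V7. That pair held 20.3% of the 64 Pdcd1-positive cells with Tcrg-V7, which was also found in 9 of 39 cells with Trbv12-1 and Trav14-2 and 4 of 12 with Trbv19 and Trav14-1 in LR 4, 3 of 15 with Trbv16 and Trav14-3 in PBS 8 and 5 of 47 with Trbv19 and Trav5-4 in PBS 6. With Trbv16 in LR 4, 23 of 53 cells (43.4%, 29.8 to 57.7) had Tcrg-V3 and 13 had Trgv2, against Tcrg-V3 in 12 of the 1579 other cells (0.760%); those 53 cells included 45 with no leading Trav. With Trbv16 in PBS 9, 59 of 136 cells (43.4%) had Trgv2 and 7 had Tcrg-V1. The groups were picked out after their values were seen, so no test is given.

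**Figure D4:**
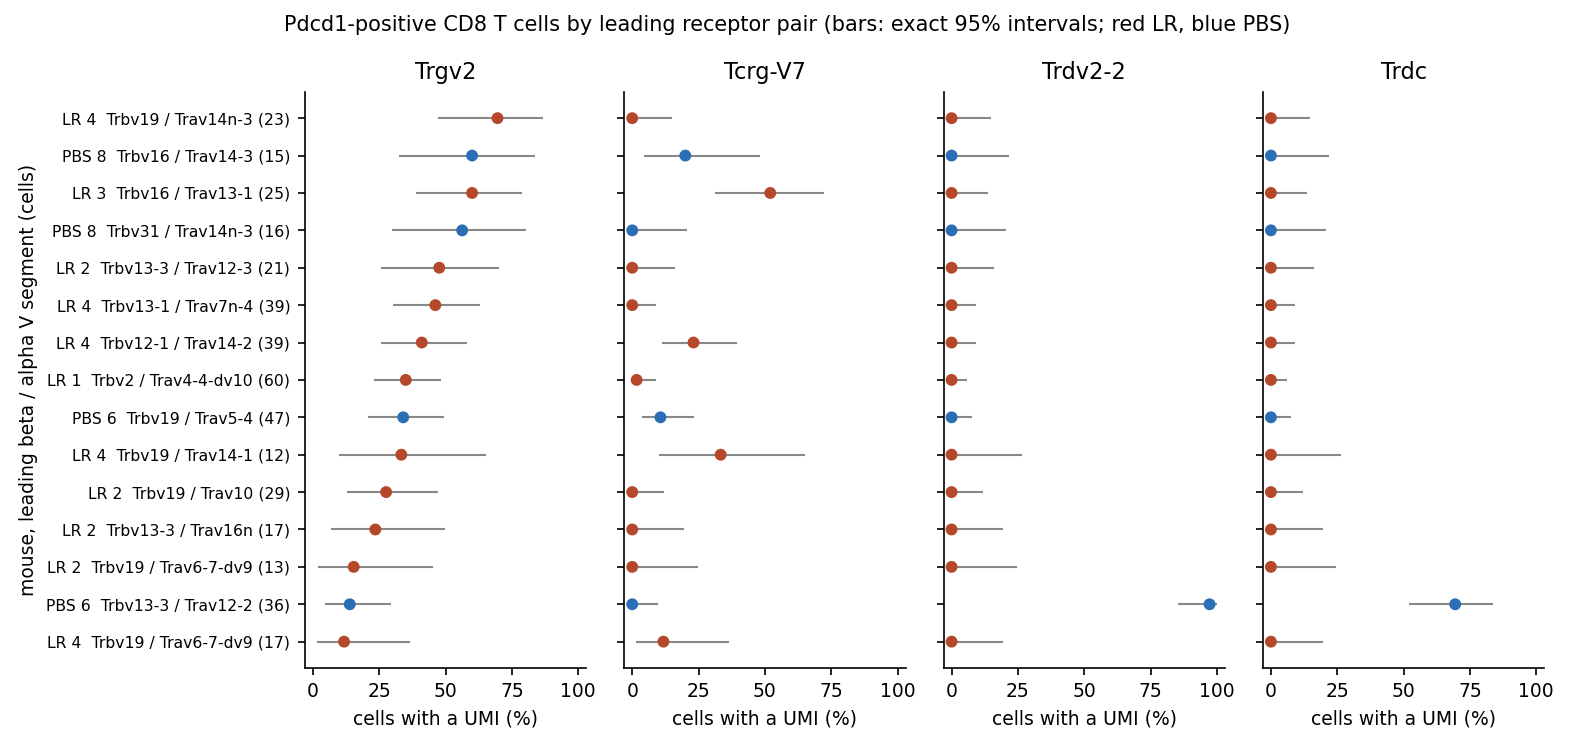
Percentage of Pdcd1-positive CD8 T cells with a UMI of Trgv2, Tcrg-V7, Trdv2-2 and Trdc for the 15 receptor pairs of at least 12 cells, with the mouse and the number of cells at the left and exact 95% intervals as lines. Trgv2 is spread over all pairs, and Trdv2-2 and Trdc are seen in 1 pair of PBS 6.

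Trdc in CD8 T cells came mainly from a single mouse. In Pdcd1-positive Xcl1-low cells it was 0 CPM in LR 1, LR 2, LR 3, PBS 7 and PBS 9, 0.420 CPM in LR 4, 1.20 CPM in PBS 8 and 29.6 CPM in PBS 6, a mean of 3.90 CPM ± 10.4 (SD, n = 8), or 0.232 CPM without PBS 6. In Pdcd1-positive Xcl1-high cells only PBS 6 had Trdc, at 21.1 CPM. Of the 30 Pdcd1-positive CD8 T cells with Trdc, 28 were in PBS 6, which is 16.1% of its 174 cells (11.0 to 22.4), against 2 of 1458 in the other 7 mice (0.137%, 0.0166 to 0.495). In Pdcd1-negative Xcl1-low cells Trdc averaged 1.48 CPM ± 1.52 and in CD4 T cells 0.560 CPM ± 0.956 (SD, n = 8 each), with overlapping mice.

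Most of the PBS 6 cells with Trdc shared a receptor pair. Of the 36 Pdcd1-positive CD8 T cells of PBS 6 that led with Trbv13-3 and Trav12-2, 25 had Trdc (69.4%, 51.9 to 83.6) and 35 had the delta variable gene Trdv2-2 (97.2%, 85.5 to 99.9), with 315 Trdv2-2 UMIs and up to 30 in a cell. Trdv2-2 (ENSMUSG00000076866) lies on chromosome 14 at 53960944 to 53961602 on the plus strand, upstream of Trdc. Of the same 36 cells 35 had Trac, 29 had Trbc1 and 32 had Trbc2, all 25 cells with Trdc had both Trdv2-2 and Trac, and 5 (13.9%) had Trgv2. These cells were deep, with a median of 9439 UMIs, and 7 of them were Xcl1-high. In the remaining 1596 Pdcd1-positive cells of all mice, 5 had Trdc (0.313%) and 16 had Trdv2-2 (1.00%).

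Cells with Trdc and no Trac UMI, the pattern that a gamma delta T cell would show, were rare. There were 21 among 10408 cells (0.202%, exact 95% interval 0.125 to 0.308), out of 66 cells with Trdc. Of the 21, 13 had a Trbc1 or Trbc2 UMI, 13 had Cd8a or Cd8b1, 8 met the CD8 T cell definition, 1 the CD4 T cell definition and 2 had Ncr1, and 3 had at least 2 Trdc UMIs. Among CD8 T cells as a whole 2272 (47.4%) also had no Trac UMI, so its absence in a single cell says little at this depth. Cd3e was found in 16 and Cd3g in 17 of the 21. The markers Sox13, Zbtb16, Blk, Maf, Il17a, Il23r, Cd163l1, 5830411N06Rik, Il1r1 and Ccr6, many of them linked to interleukin-17-producing gamma delta T cells, had 0 UMIs in all 21, for each of which 3 counts allow a share of up to 14.3% of such cells with a UMI; at this depth that does not limit the share that transcribe the gene. Gata3 was found in 6, Id3 in 3, Trdv2-2 in 4, Trgv2 in 2, Tcrg-C4 in 2, and Tcrg-C1 and Tcrg-C2 in none. The data thus held too few such cells for a test of their genes against CD8 T cells, and the label of a gamma delta T cell could not be given to them.

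Most Trdv4 UMIs were in Ncr1-positive cells, of which 8 are also counted as CD8 T cells. Of its 15 UMIs, 10 were in 7 of the 45 Ncr1-positive cells (15.6%, 6.49 to 29.5), at 61.4 CPM over the pooled cells, while 3 of 3118 Pdcd1-negative Xcl1-low and 1 of 1457 Pdcd1-positive Xcl1-low CD8 T cells and none of 1261 CD4 T cells (3 counts allow up to 0.238%) had a Trdv4 UMI. The Trdv4 cells of the Ncr1-positive and CD8 T classes overlap, so these numbers are not of separate cells. The Ncr1-positive cells carried all 12 NK markers, among them Ncr1 itself, which defines the class, at a summed 12700 CPM. The sum was 612 and 712 CPM in the Xcl1-low CD8 classes and 1844 CPM in Pdcd1-negative Xcl1-high CD8 T cells. The Lyz2-positive cells reached 6150 CPM, from only 3 of the 12 markers. Klrb1c, which encodes NK1.1, was found in 39 of the 45 and Tyrobp, an NK adaptor gene, in 38; Cd3e was found in 14, Trac in 6 and Trbc1 or Trbc2 in 23. Of the 11 cells with Trdv4, 8 had Klrb1c and 0 had Trdc. No mouse had 20 Ncr1-positive cells, so these cells were not compared between treatments.

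The class rule did not use the comparison of LR with PBS mice. It called neither Trgv2 nor Tcrg-C2, the only members that passed the filter on low counts in any class. In all CD8 T cells 0 of 9808 genes were called (0%; in edgeR 698 had an unadjusted p below 0.05, and DESeq2 called 2). Trgv2 in all CD8 T cells was 37.5, 79.7, 124 and 118 CPM in LR mice and 67.4, 11.3, 91.3 and 86.6 CPM in PBS mice, which overlapped. The log2 ratio of LR over PBS was 0.45 (SE 0.52, 95% interval -0.57 to 1.47, edgeR adjusted p = 0.780) for Trgv2 and 0.60 (SE 0.52, 95% interval -0.42 to 1.62, edgeR adjusted p = 0.711) for Tcrg-C2. In Pdcd1-positive Xcl1-low cells 1 of 8110 genes was called (0.0123%; Plac8, named after its value was seen), Trgv2 was at -0.04 (95% interval -0.65 to 0.57, edgeR adjusted p = 1.00) and Tcrg-C2 at 0.05 (95% interval -0.62 to 0.72, edgeR adjusted p = 1.00). In Pdcd1-negative Xcl1-low cells 0 of 7657 genes were called (0%; in edgeR 394 had an unadjusted p below 0.05, and DESeq2 called 0). There Trgv2 was at 1.06 (95% interval -0.47 to 2.58, edgeR adjusted p = 0.986), and at -0.09 without LR 4. In CD4 T cells 1 of 5705 genes was called (0.0175%; Slc16a3, named after its value was seen) and no member passed the filter on low counts.

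Tcrg-C1, Tcrg-C4, Trdc and Trdv4 did not pass that filter in any class. Without the filter Trdc in Pdcd1-positive Xcl1-low cells had a log2 ratio of LR over PBS of -4.95 (edgeR adjusted p = 0.0152), which became -0.73 (edgeR adjusted p = 0.949) when PBS 6 was left out.

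The share of cells with Trdc and no Trac was 0.0766%, 0.0982%, 0.209% and 0% in LR mice 1 to 4 and 0.490%, 0.271%, 0.244% and 0.225% in PBS mice 6 to 9. It rested on 1, 1, 1 and 0 cells and on 3, 7, 4 and 4 cells. Every LR mouse was below every PBS mouse (0.0959% ± 0.0862 against 0.308% ± 0.123, SD, n = 4 each; exact permutation p = 0.0286, two-sided, the smallest this design allows). The difference fell to -0.0843 percentage points (exact permutation p = 0.0857) when cells with Trbc1 or Trbc2 were left out too and to -0.0402 (exact permutation p = 0.429) with at least 2 Trdc UMIs, and in CD8 T cells alone it was -0.306 (exact permutation p = 0.0571).

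Within classes, 3 further divisions of cells that the rule did not use were tested in edgeR with mouse as a block. Pdcd1-positive CD8 T cells with and without Mki67, a proliferation gene, differed in 2394 of 6575 genes (36.4%), and Trgv2 lay at -0.34 on the log2 scale (SE 0.15, edgeR adjusted p = 0.0695) and Tcrg-C2 at -0.49 (SE 0.23, edgeR adjusted p = 0.101), neither of which was called. Trgv2 was called when LR 2 (edgeR adjusted p = 0.0413) or PBS 7 (edgeR adjusted p = 0.0132) was left out and without the filter on low counts (-0.31, edgeR adjusted p = 0.0136), and it was at -0.16 (edgeR adjusted p = 0.348) without LR 3. CD4 T cells with and without Pdcd1 differed in 1495 of 4484 genes (33.3%; 6 mice), and Pdcd1-negative CD8 T cells with and without Cxcr3, a chemokine receptor of effector and memory T cells, in 918 of 5244 (17.5%). No member passed the filter on low counts in those comparisons.

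Across 29 sums of a mouse and a class, the genes outside the receptor loci whose log2(CPM + 10) was most like that of Trgv2, among 7769 genes, were Cd244a (Pearson r = 0.94), Klre1 (r = 0.93) and Rcn1 (r = 0.91). For Tcrg-C2 they were Arsb (r = 0.90), Klre1 (r = 0.90) and Cd244a (r = 0.90). The sums share mice, differ in depth and span the classes of the rule, so a gene that differs between classes as Trgv2 does has a high r. These values are a description. Between Pdcd1-positive CD8 T cells with and without Trgv2, Cd244a, Klre1 and Rcn1 were not called (edgeR adjusted p = 0.153, 0.160 and 0.197). Arsb was called there, at a log2 ratio of 0.51 (edgeR adjusted p = 0.00398). For the sparse Tcrg-C1, Tcrg-C4, Trdc and Trdv4 the highest r was 0.59, 0.67, 0.51 and 0.54.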

How the data were processed

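The deposited matrix holds raw UMI counts per gene and barcode (Cell Ranger 4.0.0, GRCm38, per the submitters' processing notes), for 16969 barcodes and 9 hashtags, 1 of which (LR mouse 5) had no stained population. Barcodes with at least 500 genes, at most 10% mitochondrial UMIs and 1 hashtag were kept (2569 of 14474 had 2 or more hashtags, 678 none), and 819 of these marked by Scrublet (scanpy 1.11.5) were left out. CPM are UMIs per 1000000 gene UMIs of a mouse and class; the 5′ counts were not divided by gene length, so levels are compared within genes.

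For each class, the UMI counts of a mouse were added up (at least 20 cells per mouse) and tested with edgeR 4.0.16 (quasi-likelihood, TMM, filterByExpr, adjusted p at most 0.05); DESeq2 1.42.0, other scaling, no filter and leaving out each mouse were alternatives. On simulated counts for LR against PBS in CD8 T cells (9808 genes), 74 of 100 2-fold (74.0%) and 96 of 98 4-fold changes (98.0%) were recovered. A further 18 calls were false, a larger share of calls than the threshold of 0.05 aims at. The changed genes were drawn only from those with more than 20 expected UMIs in an average mouse. These rates therefore do not cover the sparse members, and need not hold for Trgv2 and Tcrg-C2, whose SE was 0.52. Shares have exact Clopper-Pearson intervals; for a count of 0 the limit given is 3 counts over the number of cells, and it bounds cells with a UMI only. Mice were separate animals, taken from the hashtag names; LR and PBS numbers pair nothing, and comparisons within mice were blocked by mouse because both sides come from the same animals.

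The members, gene lists and divisions of cells were chosen with earlier results of these data known. Named genes are the 6 members, genes of the same loci, the fixed lists, the 3 most similar genes, and, chosen after seeing the data for the Trgv2 comparison, the 10 most significant genes per direction with the same sign in every mouse. Results for 2 listed genes are not reported here. Reference sequences and positions are from GENCODE M21.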

Additional observations from a re-analysis of the deposited data

Results flagged for a closer look

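For each member and class with at least 10 UMIs, and for the share of cells with Trdc and no Trac, groups of 4 mice were examined, 22 in all. A mouse stood out when its gap to the nearest other exceeded Dixon's 95% critical value. Chance gives that in about 1 of 20 groups of normally distributed values, a rate that need not hold for sparse counts, and 4 stood out. Trdc in Pdcd1-positive Xcl1-low CD8 T cells was 29.6 CPM (32 UMIs) in PBS 6, with the other PBS mice at 0 to 1.20 CPM. In the LR mice of the same class it was 0.420 CPM in LR 4, which is 1 UMI, and 0 CPM in the others. With all the others at 0 CPM, any single UMI is flagged. Trgv2 in Pdcd1-negative Xcl1-low CD8 T cells was 62.9 CPM (33 UMIs) in LR 4, with the other LR mice at 5.75 to 12.8 CPM. In the PBS mice of that class Trgv2 was 0.870 CPM (3 UMIs) in PBS 7, with the others at 12.6 to 14.1 CPM.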

How the results depend on the processing

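Over 660 alternative values for 51 results, 599 kept their direction and side of the threshold (or, for a value without a test, moved by less than the spread). The 599 include the levels with 1 mouse left out, which cannot move a mean by as much as the spread and so could not fail. The other 61 values were not kept, and the cause was not tested. Of the 61, 9 reversed, all of them uncalled log2 ratios of LR over PBS in a single class: leaving out each mouse moved Trgv2 from -0.092 (without LR 4) to 1.63 in Pdcd1-negative Xcl1-low cells and from -0.27 to 0.20 in Pdcd1-positive Xcl1-low cells, and Tcrg-C2 from -0.17 to 0.32 in the latter, where it was -0.027 without the filter and PBS 6. LR against PBS called, by DESeq2, 2 genes in CD8 T, 3 in Pdcd1-positive Xcl1-low and 13 in CD4 T cells. Without a filter on low counts it called 43 in Pdcd1-negative Xcl1-low, 35 in Pdcd1-positive Xcl1-low and 276 in CD4 T cells, and without the filter and PBS 6 (added after seeing the data) 1 in CD8 T, 147, 108 and 554. With Scrublet doublets kept it called 2 in CD4 T cells. Leaving out each mouse gave 0 to 2 genes in Pdcd1-negative Xcl1-low, 0 to 2 in Pdcd1-positive Xcl1-low and 0 to 237 in CD4 T cells, the 237 without PBS 6. DESeq2 called 833 genes for Pdcd1 in CD4 T cells, 1446 for Mki67 and 503 for Cxcr3, and leaving out each mouse gave 577 to 1042 for Cxcr3, the 577 without PBS 9. For Trgv2, 90 genes were called by DESeq2, 317 without the filter, 45 in thinned cells and 36 without the block of each mouse (main 141), and 100 to 153 when leaving out each mouse. Without the mouse block 1420 genes were called for Pdcd1 in CD4 T cells, 2112 for Mki67 and 691 for Cxcr3, and no member's call changed. The difference in cells with Trdc and no Trac (percentage points) was -0.0843 with no Trac, Trbc1 or Trbc2 UMI, -0.0402 with at least 2 Trdc UMIs, -0.492 (exact permutation p = 0.171) at 2000 UMIs and -0.306 in CD8 T cells alone, and ranged from -0.249 to -0.151 when leaving out each mouse, where the exact test cannot go below p = 0.0571. Trgv2 in Pdcd1-positive cells with Xcl1 of at least 1 was 72.7 CPM. Depth limits the sparse members: Tcrg-C1, Tcrg-C4, Trdc and Trdv4 rest on 15 to 91 UMIs in all.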
